A study of Homo sapiens with 12 samples.

Results

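GATAD2A and 9 further subunits of the nucleosome remodelling and deacetylase (NuRD) complex were followed through an RNA sequencing experiment on NUF2 knockdown in clear cell renal cell carcinoma (ccRCC) cells. The 10 members, GATAD2A, GATAD2B, CHD3, CHD4, HDAC1, HDAC2, MTA1, MTA2, MTA3 and MBD3, were taken by gene name, and all 10 were found among the 58302 genes of the deposited tables, of which 36305 were above 0 in at least 1 library. The study asked what NUF2, a protein of the outer kinetochore that links chromosomes to the mitotic spindle, does in ccRCC cells. It named GATAD2A among genes of chromatin and transcription that changed in these same libraries, so the values of GATAD2A here are not independent evidence of its direction.

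The human ccRCC lines 769-P and ACHN were each transfected for 48 h with siNUF2, a mixture of siRNAs against NUF2 according to the methods of the study, or with siControl, a negative control siRNA. Each of the 4 groups had 3 libraries, which the labels number as repeats without saying whether they were separate cultures, so the p-values below measure the spread between these libraries, which may be technical. Each model is 1 cell line after transient transfection, and the labels report no other treatment or genotype. Values are FPKM (fragments counted per kilobase of a gene's exons and scaled to the depth of the library) as the authors deposited them.

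NuRD joins 2 enzyme activities in a single complex. A CHD3 or CHD4 ATPase moves nucleosomes, and HDAC1 and HDAC2 remove acetyl groups from histones. MTA proteins hold the deacetylases, MBD2 or MBD3 ties this deacetylase core to the remodelling part, and GATAD2A or GATAD2B (p66 alpha and p66 beta) bridges the MBD protein and the CHD ATPase. Most positions can be filled by alternative paralogues, so that a cell can hold several forms of NuRD, which are known mainly for repressing transcription and for roles in DNA repair and in the choice of cell fate.

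In both cell lines, transcripts of GATAD2A, HDAC1 and MTA1 were higher in every siNUF2 library than in every siControl library, with group means at 130% to 149% of siControl in 769-P and 134% to 140% for ACHN. Of all genes tested, 16.6% in 769-P and 8.84% for ACHN were likewise higher in every siNUF2 library, on scaled FPKM. CHD3 was at 141% in 769-P and at 101% for ACHN. CHD4, HDAC2, MTA2, MTA3 and MBD3 stayed between 92.8% and 105% of siControl in both lines. None of the 10 members was called lower by limma in 769-P cells, where 4.71% of all genes tested were, or in ACHN cells, where the same test called 0% of genes in either direction.

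The promoter regions of the 3 members that were higher in both lines are shown because these genes moved together. They come from RefSeq on GRCh38.p14, which held all 10 members, and each covers 250 bases before and 50 after an annotated start, 5′ to 3′ on the strand of the gene. Capitals mark CCAAT (the CCAAT box, which NF-Y binds) and GGGCGG (the GC box, which SP1 binds) on either strand, so that ATTGG and CCGCCC are in capitals too. The windows are chr19:19385593-19385892 on the forward strand for the first of 2 GATAD2A starts, chr1:32291833-32292132 on the forward strand for HDAC1, and chr14:105419577-105419876 on the forward strand for MTA1.
GATAD2A: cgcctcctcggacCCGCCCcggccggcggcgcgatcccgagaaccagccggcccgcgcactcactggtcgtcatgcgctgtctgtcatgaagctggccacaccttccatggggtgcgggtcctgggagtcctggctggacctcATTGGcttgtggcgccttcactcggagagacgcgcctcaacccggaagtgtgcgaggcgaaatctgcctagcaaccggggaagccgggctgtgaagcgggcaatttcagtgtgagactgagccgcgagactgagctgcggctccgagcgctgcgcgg
HDAC1: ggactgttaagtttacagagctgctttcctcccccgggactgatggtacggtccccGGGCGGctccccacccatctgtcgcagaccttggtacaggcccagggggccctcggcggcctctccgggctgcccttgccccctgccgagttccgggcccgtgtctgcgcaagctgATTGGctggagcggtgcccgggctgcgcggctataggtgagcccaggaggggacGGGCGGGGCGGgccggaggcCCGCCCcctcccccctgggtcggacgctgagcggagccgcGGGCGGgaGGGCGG
MTA1: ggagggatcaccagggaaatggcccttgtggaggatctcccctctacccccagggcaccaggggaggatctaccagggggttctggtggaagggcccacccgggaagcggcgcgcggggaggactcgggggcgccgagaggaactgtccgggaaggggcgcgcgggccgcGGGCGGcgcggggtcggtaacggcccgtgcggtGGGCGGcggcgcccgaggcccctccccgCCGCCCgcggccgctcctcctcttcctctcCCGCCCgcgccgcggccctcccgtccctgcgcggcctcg

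CCAAT was found 1 time in the GATAD2A window, 1 time in the HDAC1 window and not in the MTA1 window, and 34.6% of all 35116 RefSeq promoter windows of this length held it. GGGCGG, which overlaps itself at some of these places, was found 1 time in this GATAD2A window, 6 times for HDAC1 and 4 times for MTA1, and 45% of all windows held it. The window of the second GATAD2A start, which is not printed, held 8 matches of GGGCGG and none of CCAAT. The G and C content was 67.7% for GATAD2A, 73.7% for HDAC1 and 77.7% for MTA1, against a median of 58.7%. Of 15 windows of the 10 members and RBBP4, 6 held CCAAT and 12 held GGGCGG. RBBP4 is not one of the 10 members, and both of its windows held CCAAT and GGGCGG. The RBBP4 windows also overlap each other, so some of their matches were counted in both. E-box (CACGTG), ETS (CCGGAAG), E2F (TTTNNCGC), CHR (TTTGAA) and interferon-response ISRE letters, searched on both strands, were in 1, 4, 0, 0 and 0 of the 15 windows and in 7.26%, 10.3%, 6.89%, 15.2% and 3.57% of all windows. The window with the E-box was of RBBP4 and not of a member. These matches are descriptions of the letters and not sites of binding.

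The libraries held 28704184 to 38086336 reads, as recovered from the FPKM, and the members 949 to 12613 reads per library, which puts the counting error of a value, as a coefficient of variation, between 0.89% and 3.25%. NUF2 itself, the check of the knockdown, had 4.17, 3.86 and 3.01 FPKM in the siNUF2 libraries of 769-P cells against 19.4, 17.8 and 17.8 with siControl, and 2.16, 5.14 and 4.25 FPKM in the siNUF2 libraries of ACHN cells against 11.6, 15.0 and 14.8. It was thus at 20.1% of siControl in 769-P and 27.9% for ACHN. All 6 renal epithelial markers were detected in 769-P cells, whereas CDH6 was at or near 0 in ACHN cells. The 8 markers of leukocytes, endothelium, fibroblasts and smooth muscle summed to at most 0.208 FPKM in any library. Other genes also moved: the summed FPKM of 15 interferon-stimulated genes ran from 204 to 573 in the siNUF2 and 106 to 153 in the siControl libraries of 769-P cells, and from 234 to 321 and 282 to 381 in ACHN cells. The 16 proliferation markers summed to 830 to 950 (siNUF2) and 857 to 921 (siControl) in 769-P, and to 508 to 622 and 386 to 555 in ACHN. The part of these genes in the changes of NuRD transcripts was not tested.

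Each cell line was tested with limma on log2(FPKM + 0.1), and a gene was called at a Benjamini-Hochberg adjusted p under 0.05 over all genes tested. Same-numbered libraries deviated together in both lines, so a fit that blocks on the replicate number stands beside the fit without it. Fold changes are differences on this log2 scale with their 95% intervals. Of the 10 members, 2 were called higher in 769-P cells and none lower, against 5.26% higher and 4.71% lower of the 14155 genes tested there. With the block, 4 were called higher, against 13.6% of all genes, and none lower, against 13.9%. In ACHN cells limma called 0 of 15116 genes without the block, as did limma-voom, while 1238 genes (8.19%) had an unadjusted p under 0.05, 3 of them members. With the block 3 members were called higher in ACHN cells and none lower, against 7.14% and 5.05% of all genes. NUF2, the target of the knockdown, was not called in ACHN cells without the block (log2 fold change -1.87, limma adjusted p = 0.224). Its limma adjusted p was 0.0122 with the block. The lack of calls in ACHN cells without the block thus does not show a lack of change.

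GATAD2A (ENSG00000167491, chromosome 19, 19385826 to 19508931, forward strand of GRCh38) encodes the p66 alpha scaffold that connects the deacetylase and remodelling parts of NuRD. Its transcripts were at 23.2, 21.5 and 19.1 FPKM in the siNUF2 libraries of 769-P cells and at 17.6, 17.6 and 13.8 FPKM in the siControl libraries. The lowest siNUF2 library was above the highest siControl library, and replicate 3 was the lowest of its group on both sides. The log2 fold change was 0.39 (0.10 to 0.68), with a limma adjusted p of 0.0913 without the block and 0.0102 (0.25 to 0.53) with it. In ACHN cells, GATAD2A was at 15.0, 14.9 and 15.0 FPKM with siNUF2 and at 11.3, 11.4 and 10.6 FPKM with siControl. These siNUF2 libraries were nearly alike, and the groups did not overlap. The log2 fold change was 0.44 (0.24 to 0.65), with a limma adjusted p of 0.237 without the block and 0.0169 (0.31 to 0.57) with it. The response of GATAD2A did not differ detectably between the lines: the difference, ACHN minus 769-P, was 0.06 (-0.27 to 0.38, limma adjusted p = 1.00).

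GATAD2B (ENSG00000143614, chromosome 1, 153789030 to 153923360, reverse strand) encodes p66 beta, which can take the place of GATAD2A. It had 4.27, 4.67 and 4.49 FPKM with siNUF2 and 3.48, 4.01 and 4.30 FPKM with siControl in 769-P cells, and the lowest siNUF2 library lay below the highest siControl library on this scale. After scaling for library composition the groups just separated. The log2 fold change was 0.20 (-0.03 to 0.43) with a limma adjusted p of 0.243, and 0.0896 with the block. In ACHN cells GATAD2B was at 4.45, 5.56 and 4.94 FPKM with siNUF2 against 4.50, 5.51 and 4.55 FPKM with siControl, and the log2 fold change was 0.05 (-0.27 to 0.38, limma adjusted p = 0.990). GATAD2A made up 82.5% ± 1.77 (SD, n = 3) of the summed FPKM of the pair with siNUF2 and 80.4% ± 3.72 with siControl in 769-P cells. In ACHN cells it made up 75.0% ± 2.18 and 69.7% ± 2.08. The level of this share depends on exon length, which was 7296 bases for GATAD2A and 9247 for GATAD2B. The ratio of GATAD2A to GATAD2B ran from 2.67 to 3.37 with siNUF2 and from 2.08 to 2.52 with siControl in ACHN cells, with no overlap, whereas the ratios of 769-P cells overlapped. Compared within same-numbered libraries, the ratio was higher with siNUF2 in 3 of 3 pairs of both lines.

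HDAC1 (ENSG00000116478, chromosome 1, 32292086 to 32333635, forward strand), a histone deacetylase shared by NuRD, SIN3 and CoREST complexes, had the highest fold change of the members in both lines, with overlapping intervals for HDAC1, MTA1 and GATAD2A. MTA1 was above it without siControl replicate 1 in 769-P cells and without siNUF2 replicate 1 in ACHN cells. In 769-P cells HDAC1 was at 82.5, 83.4 and 88.3 FPKM with siNUF2 and at 58.0, 57.5 and 54.9 FPKM with siControl. The gap between the groups was larger than the whole range of either, and HDAC1 rose by 0.59 (0.44 to 0.73) on the log2 scale, with a limma adjusted p of 0.00532 and 0.00554 with the block. In ACHN cells HDAC1 was at 37.1, 35.3 and 32.9 FPKM with siNUF2 against 26.4, 27.1 and 21.8 FPKM with siControl. The groups again did not overlap, with a log2 fold change of 0.51 (0.22 to 0.79), a limma adjusted p of 0.317 without the block and 0.0166 with it. In 1 limma fit of all 12 libraries, which calls 0.833% of genes higher in ACHN cells, HDAC1 was the single member called there.

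HDAC2 (ENSG00000196591, chromosome 6, 113933028 to 114011308, reverse strand), the paralogue that pairs with HDAC1, was at 12.6, 12.8 and 12.1 FPKM with siNUF2 and at 12.3, 13.5 and 13.3 FPKM with siControl in 769-P cells. In ACHN cells it had 6.39, 6.62 and 6.28 FPKM with siNUF2 and 6.37, 6.39 and 6.05 FPKM with siControl. The groups overlapped in both lines, with log2 fold changes of -0.05 (-0.21 to 0.11) and 0.05 (-0.16 to 0.26) and limma adjusted p of 0.701 and 0.984. As a ratio to HDAC1, HDAC2 was lower without overlap in both lines. In 769-P the ratio was 0.137 to 0.153 with siNUF2 against 0.212 to 0.243 with siControl. In ACHN it was 0.172 to 0.191 against 0.236 to 0.278. This ratio reuses the HDAC1 values given above and is not a separate result. The level of HDAC2 relative to HDAC1 depends on the exon length by which FPKM is divided, which is 15461 bases for HDAC2 and 3963 for HDAC1 in GENCODE release 29, but its change between groups does not.

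CHD3 (ENSG00000170004, chromosome 17, 7884806 to 7912760, forward strand) is an alternative remodelling ATPase of NuRD. In 769-P cells its transcripts were at 36.9, 39.2 and 40.1 FPKM with siNUF2 and at 28.2, 28.9 and 25.3 FPKM with siControl. Every siNUF2 library was well above every siControl library, and CHD3 rose by 0.51 (0.33 to 0.69) on the log2 scale, with a limma adjusted p of 0.0131 and 0.00960 with the block. Without siNUF2 replicate 3 the adjusted p was 0.0563. In ACHN cells CHD3 had 16.7, 19.9 and 17.8 FPKM with siNUF2 and 16.5, 20.6 and 16.7 FPKM with siControl. Here the groups overlapped fully and same-numbered libraries lay close to each other, with a log2 fold change of 0.03 (-0.28 to 0.34, limma adjusted p = 0.994) and an interval of -0.10 to 0.16 with the block.

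CHD4 (ENSG00000111642, chromosome 12, 6570082 to 6614524, reverse strand), the main NuRD ATPase of most cells, was at 47.9, 51.4 and 51.7 FPKM with siNUF2 against 48.7, 51.5 and 50.8 FPKM with siControl in 769-P cells. In ACHN cells CHD4 was at 46.1, 41.5 and 39.4 FPKM against 44.7, 40.2 and 36.6 FPKM. The groups overlapped in both lines, with log2 fold changes of 0.01 (-0.13 to 0.15) and 0.08 (-0.19 to 0.36) and limma adjusted p of 0.930 and 0.966. CHD3 thus made up 43.5% ± 0.235 (SD, n = 3) of the summed CHD3 and CHD4 FPKM with siNUF2 in 769-P cells, against 35.3% ± 1.81 with siControl, and 29.98% ± 3.06 against 30.7% ± 3.47 in ACHN cells. Whole reads of CHD4 were recovered with an exon length of 7474 bases, whereas GENCODE release 29 annotates 12713. By the annotated length, CHD3 would make up 56.7% of the sum with siNUF2 and 48.1% with siControl in 769-P, against 42.1% and 42.9% for ACHN, so the share depends on the length. The annotation overlaps CHD4 exons over 5964 bases with a readthrough gene on the same strand (AC006064.6) and over 1295 bases with an antisense gene, and reads of CHD4 can be assigned differently there.

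The response of CHD3 differed between the lines by -0.47 (-0.78 to -0.15) on the log2 scale, ACHN minus 769-P, in 1 limma fit of all 12 libraries. Its unadjusted p was 0.00764, and its adjusted p was 0.890 without and 0.0577 with the block, so the difference did not pass the threshold. Limma called 0 of 16564 genes for this difference without the block, as did limma-voom, and 776 genes (4.68%) had an unadjusted p under 0.05. With the block it called 251 genes (1.52%) and no member. For the other 9 members the difference ran from -0.14 (GATAD2B) to 0.11 (HDAC2), with unadjusted p of at least 0.302.

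**Figure D1:**
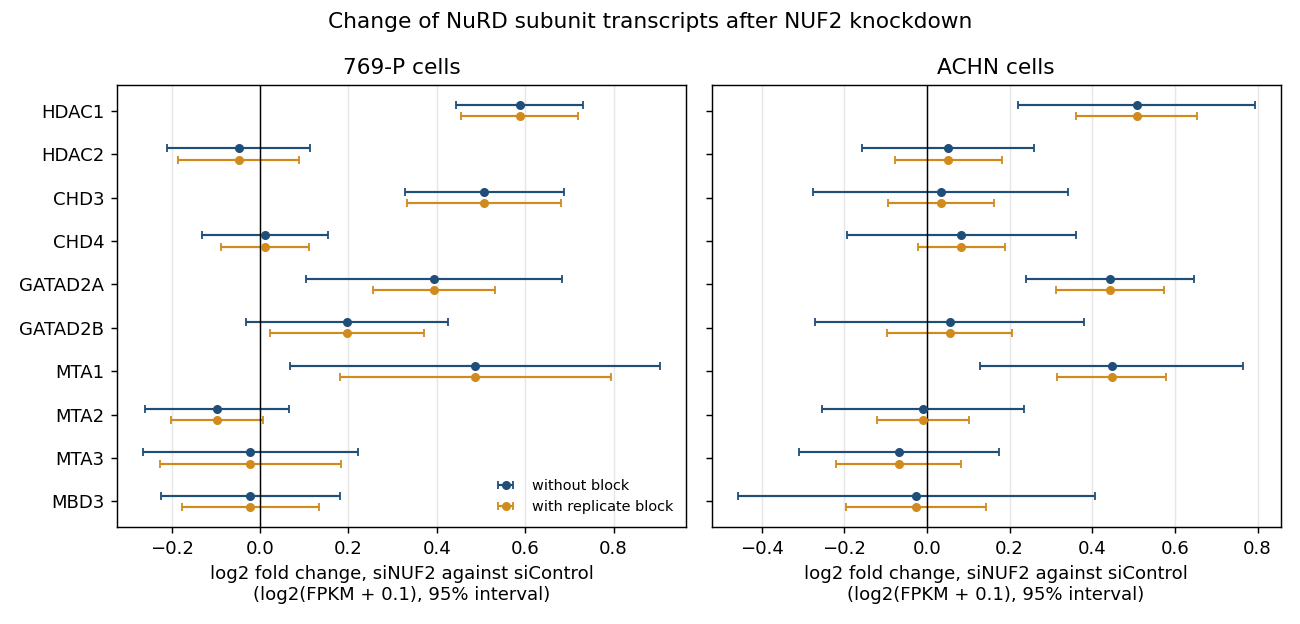
log2 fold change (siNUF2 against siControl) of each NuRD member with its 95% interval, from limma on log2(FPKM + 0.1), without and with the replicate block. HDAC1, GATAD2A and MTA1 lie above 0 in both lines, and CHD3 at 0.51 in 769-P and 0.03 for ACHN.

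MTA1 (ENSG00000182979, chromosome 14, 105419820 to 105470729, forward strand) is a scaffold that binds and activates HDAC1 and HDAC2. In 769-P cells MTA1 was at 12.1, 11.1 and 10.8 FPKM with siNUF2 and at 9.94, 8.85 and 6.09 FPKM with siControl. The groups did not overlap, but siControl replicate 3 was far below the other libraries of its group. The log2 fold change was 0.49 (0.07 to 0.91), with a limma adjusted p of 0.133 and 0.0396 with the block, and it was 0.28 without siControl replicate 3. In ACHN cells MTA1 was at 17.7, 20.1 and 17.1 FPKM with siNUF2 and at 13.1, 15.7 and 12.1 FPKM with siControl. Replicate 2 was the highest on both sides and the groups did not overlap, with a log2 fold change of 0.45 (0.13 to 0.76), a limma adjusted p of 0.445 and 0.0169 with the block. MTA1 shares 303 exon bases with an antisense gene (AL928654.2, at most 6.81 FPKM), and whether reads were counted by strand is not given in the sources used here.

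MTA2 (ENSG00000149480, chromosome 11, 62593214 to 62601840, reverse strand) holds the same position in NuRD. It was at 42.1, 39.0 and 43.5 FPKM with siNUF2 against 44.7, 43.4 and 46.0 FPKM with siControl in 769-P, and at 26.9, 26.4 and 24.2 FPKM against 27.5, 27.6 and 23.9 FPKM in ACHN. MTA3 (ENSG00000057935, chromosome 2, 42494569 to 42756947, forward strand), the least abundant MTA gene, was at 3.51, 3.32 and 3.53 FPKM against 3.19, 3.45 and 4.001 FPKM in 769-P, and at 4.72, 4.57 and 4.49 FPKM against 5.33, 4.67 and 4.66 FPKM in ACHN. The groups overlapped for both genes in both lines. The log2 fold change of MTA2 was -0.10 (-0.26 to 0.06, limma adjusted p = 0.413) in 769-P and -0.01 (-0.25 to 0.23, limma adjusted p = 0.997) for ACHN. That of MTA3 was -0.02 (-0.26 to 0.22, limma adjusted p = 0.916) and -0.07 (-0.31 to 0.17, limma adjusted p = 0.974).

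The share of MTA1 in the summed FPKM of the MTA genes was 20.2% ± 1.26 (SD, n = 3) with siNUF2 and 14.6% ± 3.35 with siControl in 769-P cells, and 37.5% ± 1.73 and 30.3% ± 2.19 for ACHN. That of MTA2 was 73.7% ± 1.27 with siNUF2 and 79.1% ± 2.57 with siControl in 769-P, against 53.0% ± 1.43 and 58.8% ± 1.201 for ACHN. The level of these shares depends on exon length, which was 6966 bases for MTA1, 4236 for MTA2 and 10580 for MTA3. The ratio of MTA2 to MTA1 was lower without overlap in both lines, with means of 3.66 ± 0.302 (siNUF2) and 5.65 ± 1.66 (siControl) in 769-P and of 1.42 ± 0.103 and 1.95 ± 0.176 for ACHN (SD, n = 3). In 769-P cells siControl replicate 3, at 7.56, stood above the other siControl libraries, at 4.49 and 4.91, and the log2 difference of the ratio went from -0.59 to -0.36 without it. The ratio of MTA3 to MTA1 overlapped between the groups of 769-P cells but was lower with siNUF2 in 3 of 3 same-numbered pairs, by 0.15, 0.38 and 1.01 on the log2 scale. It was lower without overlap for ACHN, at 0.253 ± 0.0215 against 0.364 ± 0.0582. The exact permutation test of a single value, 3 libraries against 3, cannot give a p below 0.1, and every ratio or gene without overlap has that p. A ratio reuses the values of its genes, so its separation is not independent of theirs.

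**Figure D2:**
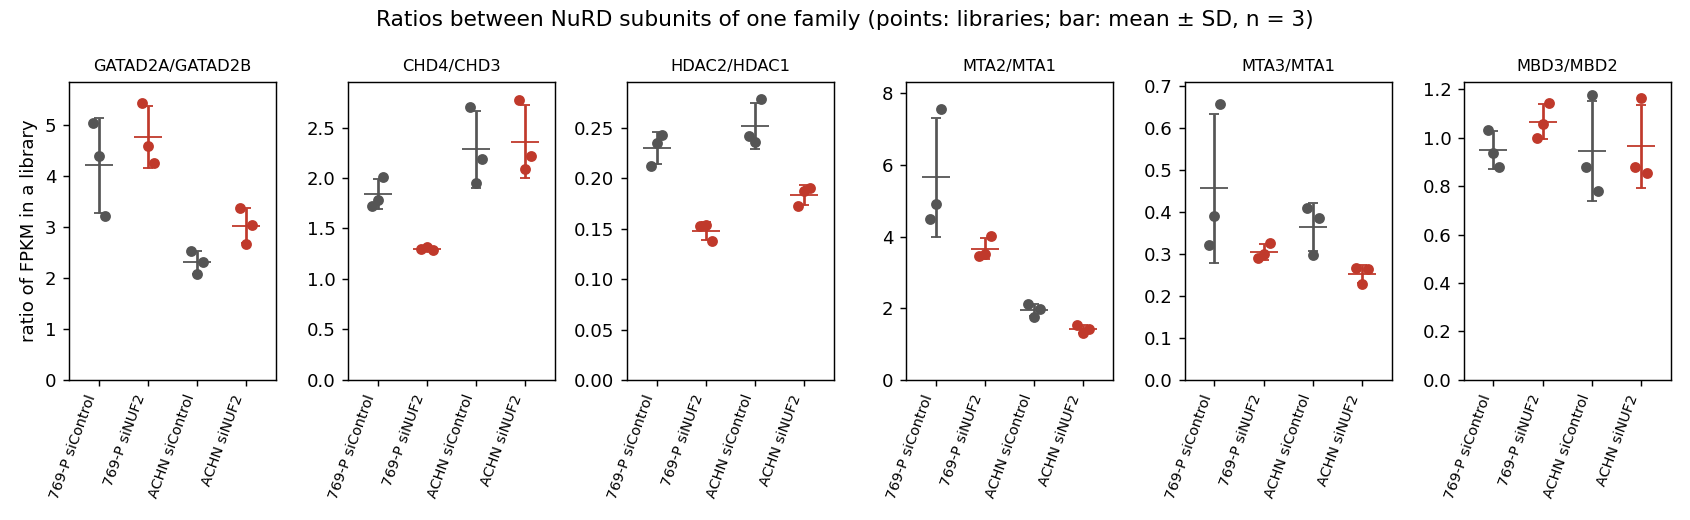
Ratio of FPKM between subunits of a family in each library, by group; points are libraries and bars the mean ± SD (n = 3). HDAC2/HDAC1 and MTA2/MTA1 are lower in all siNUF2 libraries of both lines, and CHD4/CHD3 in 769-P cells, where the means are 1.30 and 1.84.

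MBD3 (ENSG00000071655, chromosome 19, 1573596 to 1592801, reverse strand) encodes the methyl-CpG-binding domain protein at the core of a NuRD form that, unlike MBD2, has lost most binding to methylated DNA. It was at 14.5, 14.0 and 14.1 FPKM with siNUF2 against 15.9, 14.6 and 13.2 FPKM with siControl in 769-P cells, and at 11.005, 11.4 and 9.06 FPKM against 12.6, 11.7 and 8.51 FPKM for ACHN. The groups overlapped in both lines, and replicate 3 of ACHN cells was low on both sides. The log2 fold changes were -0.02 (-0.22 to 0.18) and -0.03 (-0.46 to 0.41), with limma adjusted p of 0.902 and 0.997. The ratio of MBD3 to MBD2 was 1.07 ± 0.0721 with siNUF2 and 0.950 ± 0.0776 with siControl in 769-P cells (SD, n = 3), against 0.964 ± 0.171 and 0.945 ± 0.206 for ACHN, with overlap in both and no shared direction of the 3 pairs in either.

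By whole-library separation, 5 members in 769-P (GATAD2A, GATAD2B, CHD3, HDAC1 and MTA1) and 3 in ACHN cells (GATAD2A, HDAC1 and MTA1) had every siNUF2 library above every siControl library on the scaled FPKM. Among all genes tested, 16.6% in 769-P and 8.84% for ACHN did so. No member had every siNUF2 library below, which held for 16.4% and 5.77% of all genes. The median log2 fold change of the 10 members was 0.10 in 769-P and 0.05 for ACHN, against -0.01 and 0.01 over all genes tested.

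Without knockdown the order of the members differed between the lines. In siControl libraries of 769-P cells, HDAC1 (56.8 FPKM ± 1.68, SD, n = 3) was above CHD4 (50.3 ± 1.47) and MTA2 (44.7 ± 1.30), with no overlap between neighbours, then came CHD3 (27.4 ± 1.91), followed by GATAD2A (16.3 ± 2.18), MBD3 (14.6 ± 1.31) and HDAC2 (13.05 ± 0.662), whose neighbours overlapped. MTA1 (8.29 ± 1.99) followed, and GATAD2B (3.93 ± 0.415) and MTA3 (3.55 ± 0.414) were lowest and overlapped. In ACHN cells CHD4 (40.5 FPKM ± 4.06) was highest, above MTA2 (26.3 ± 2.08) and HDAC1 (25.1 ± 2.89), which overlapped. GATAD2A (11.1 ± 0.481) and MBD3 (10.9 ± 2.13) overlapped there too, as did MTA3 (4.89 ± 0.386) and GATAD2B (4.85 ± 0.573). The rank of CHD4 rests on its recovered exon length: by the annotated length its mean would be 29.6 FPKM in 769-P cells, below MTA2, and 23.8 FPKM in ACHN cells, below MTA2 and HDAC1. The other ranks depend on exon length too, which was 15461 bases for HDAC2 and 3963 for HDAC1.

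Between the siControl libraries of the lines, 7 members were called lower and 2 higher in ACHN cells, in a comparison that called 32.2% of 15376 genes lower and 29.3% higher. HDAC1 (-1.22, limma adjusted p = 0.000112), HDAC2 (-1.08, 9.52e-05), MTA2 (-0.80, 0.000352), CHD3 (-0.65, 0.00283), GATAD2A (-0.58, 0.00558), CHD4 (-0.35, 0.0176) and MBD3 (-0.47, 0.0437) were lower in ACHN cells, as log2 differences with their limma adjusted p. MTA1 (0.69, 0.0218) and MTA3 (0.42, 0.0284) were higher in ACHN cells, and GATAD2B (0.26, 0.146) did not pass the test. Under 15 alternative settings the call was lost in 7 for MBD3, in 4 for MTA3, in 3 for CHD4 and in 1 for MTA1, while the other 5 called members kept it. The 16 proliferation markers had a median difference of -1.05, with 11 called lower in ACHN cells, and their part in this comparison was not tested. Each line is a single culture line, so the comparison is of 769-P with ACHN and not of kinds of tumour.

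Of the other core NuRD subunits (MBD2, RBBP4, RBBP7, CDK2AP1 and CHD5), 4 were tested, since CHD5 stayed at or below 0.694 FPKM. RBBP4, a histone chaperone that also serves SIN3, PRC2 and CAF-1, was at 22.9, 22.9 and 23.1 FPKM with siNUF2 against 17.7, 18.7 and 19.2 FPKM with siControl in 769-P cells. It rose by 0.32 (0.17 to 0.47) on the log2 scale there, with a limma adjusted p of 0.0258. In ACHN cells RBBP4 was at 11.9, 12.8 and 11.9 FPKM against 8.97, 10.6 and 9.65 FPKM, a log2 fold change of 0.34 (0.09 to 0.58), with a limma adjusted p of 0.446 and 0.0276 with the block. RBBP4 was therefore higher in every siNUF2 library of both lines. Its paralogue RBBP7 had log2 fold changes of -0.12 and 0.11, MBD2 of -0.19 and -0.06, and CDK2AP1 of -0.07 and -0.14, in 769-P and ACHN cells, and none of them passed the test with or without the block. RBBP7 and MBD2 separated the other way in 769-P cells, on the scaled FPKM, with RBBP7 at 23.4 to 23.7 with siNUF2 against 24.97 to 26.3 with siControl, and MBD2 at 12.4 to 14.7 against 14.9 to 15.5. In ACHN cells the groups of both overlapped. Of all genes tested, 16.6% were higher and 16.4% lower without overlap in 769-P, and 8.84% and 5.77% in ACHN. Limma called 5.26% of all genes higher in 769-P without the block, and 7.14% in ACHN with it.

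Of 15 partners that recruit or bind NuRD, 12 were tested in 769-P and 11 for ACHN. PWWP2A, a chromatin reader that binds an MTA and HDAC subcomplex, rose in 769-P cells, at 4.81, 5.26 and 4.78 FPKM against 3.78, 4.03 and 3.65 FPKM, by 0.38 (0.18 to 0.57) on the log2 scale with a limma adjusted p of 0.0353. In ACHN cells PWWP2A was at 3.24, 4.15 and 3.52 FPKM against 2.18, 3.18 and 2.66 FPKM, with a log2 fold change of 0.46, a limma adjusted p of 0.562 and 0.0276 with the block. No other partner was called without the block, where 5.26% of all genes were called higher and 4.71% lower in 769-P. With it, SALL1 (-0.46), ZFPM1 (-0.32) and CDK2AP2 (-0.23) were called lower in 769-P, and ZNF512B (0.30) higher in ACHN. The blocked fit called 13.6% of all genes higher and 13.9% lower in 769-P, and 7.14% and 5.05% in ACHN. The groups of ZFPM1 in 769-P and of ZNF512B in ACHN overlapped.

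Of 28 subunits of other complexes built on HDAC1 and HDAC2 (SIN3, CoREST, MIER and the mitotic deacetylase complex MiDAC), 27 were tested in 769-P and 28 for ACHN. In 769-P cells 2 were called higher and 4 lower, against 5.26% and 4.71% of all genes, and 5 higher and 6 lower with the block, against 13.6% and 13.9%. HMG20B, a CoREST subunit, rose by 0.57 on the log2 scale, from 16.4, 18.3 and 14.3 to 22.2, 25.1 and 24.9 FPKM (limma adjusted p = 0.0220), and ZMYM3, another CoREST partner, rose by 0.39 (limma adjusted p = 0.0198). BRMS1L, a SIN3 subunit, fell by 0.97, from 1.76, 2.11 and 2.31 to 1.19, 0.740 and 1.08 FPKM (limma adjusted p = 0.0295). MIER3 (-0.48, limma adjusted p = 0.0224), TRERF1 (-0.44, 0.0166) and ELMSAN1 (-0.40, 0.0378), which binds HDAC1 in MiDAC, were lower too.

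In ACHN cells these HDAC1 and HDAC2 partners gave no call without the block. With it, HMG20B (0.45), SAP30L (0.36) and BRMS1 (0.22) were called higher and BRMS1L (-0.60), ARID4A (-0.41) and ELMSAN1 (-0.25) lower, beside 7.14% and 5.05% of all genes. HMG20B was at 27.5, 23.9 and 20.7 FPKM with siNUF2 against 19.3, 20.04 and 14.2 FPKM with siControl, so that its groups did not overlap in either line. BRMS1L was at 1.17, 1.65 and 1.47 FPKM against 2.04, 2.48 and 2.17 FPKM and was likewise separated in both. TRERF1 and ARID4A were also lower with siNUF2 without overlap in both lines, on the scaled FPKM. Of all genes tested, 16.6% were higher and 16.4% lower without overlap in 769-P, and 8.84% and 5.77% in ACHN. The list as a whole had a median log2 fold change of -0.01 in 769-P and -0.07 for ACHN, beside -0.01 and 0.01 over all genes.

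Of the 6 other CHD genes, none was called without the block, and CHD8 (0.28, limma adjusted p = 0.0251) was called higher with it in 769-P cells. Of the 9 other histone deacetylases, again none was called without the block. With it HDAC9 (0.61) and HDAC7 (0.49) were higher and HDAC4 (-0.49) lower in 769-P cells, and none was called for ACHN. Of these deacetylases, 8 were tested in 769-P cells, where the blocked fit called 13.6% of all genes higher and 13.9% lower. HDAC9 was at most 1.17 FPKM in 769-P cells, and its groups overlapped. HDAC3, the class I deacetylase of the NCoR complex and of no NuRD form, had log2 fold changes of 0.11 in both lines, with limma adjusted p of 0.388 and 0.927.

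To place GATAD2A among all genes, the 12929 genes tested in both lines were ranked by Pearson's r with it over the 12 libraries, after subtraction of each line's mean from log2(FPKM + 0.1). The libraries share siRNA, depth and culture, so r describes them and carries no test. EIF3B (0.967), a subunit of the translation initiation factor eIF3, RPUSD1 (0.967), a pseudouridine synthase-like gene, SART1 (0.965), a splicing factor, RABL6 (0.960), a GTPase-like gene, and YRDC (0.955), which acts in tRNA modification, were the most alike. DMXL1 (-0.957), an accessory factor of the vacuolar proton pump, was the least alike. Among the members, MTA1 (r = 0.930, rank 42) and HDAC1 (r = 0.881, rank 163) were the closest, followed by CHD3 (r = 0.617), while MTA3 (r = -0.481) and MTA2 (r = -0.317) were at the other end.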

How the data were processed

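RNA of 12 libraries (769-P and ACHN cells, siNUF2 or siControl, 3 each) was sequenced, and the authors deposited FPKM for 58302 genes per library. Per the labels, HISAT2 2.0.5 and featureCounts 1.5.0-p3 were used with hg38, and reads were filtered with fastp per the methods. The strand setting is not given in the sources used here. For their own gene lists the authors used DESeq2. The NuRD members and all gene lists were chosen with earlier results of these data known.

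Reads were recovered from FPKM and exon length (GENCODE release 29, or a length search for 1414 genes) for 35999 of the 36305 genes above 0, with 99.8% of values whole within 0.02. CHD4 needed a searched length of 7474 bases. No 2 libraries of a group were copies (chi-square per gene at least 14.1).

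FPKM were scaled by a trimmed mean of log ratios (30% and 5% trimmed, factors 0.983 to 1.02). log2(FPKM + 0.1) was fitted with limma 3.58.1 in R 4.3.3 (lmFit, eBayes with trend) for genes with at least 0.5 FPKM in at least 3 libraries of the fit, which all 10 members passed in every fit. Adjusted p-values are Benjamini-Hochberg over all genes tested. Fold changes on this scale understate the change of low genes. The difference between lines is the interaction in 1 fit of 12 libraries. Same-numbered libraries of the siRNA groups correlated in their deviations from group means at 0.19 to 0.359 in 769-P and 0.46 to 0.735 for ACHN, in every pair over 0.1. The numbers come from the labels, which do not say what they stand for. They were therefore taken to pair the libraries within a line, and the blocked fit is given beside the other. Data were also simulated from these libraries with log2 changes of 1. For 769-P (14303 genes), the unblocked fit called 144 of 200 changed genes and the blocked fit 112. For ACHN cells (15289 genes), the counts were 82 and 81 of 199. The changes measured for the members were smaller, so these counts do not show how often such changes are called. The block brought no more calls in the simulated data but many more in the measured data. The simulation therefore does not bear on the calls of the blocked fit.

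Named genes were all 10 members, NUF2, genes of fixed lists that passed a call or stood at the end of their list, and the 5 most and 1 least alike to GATAD2A. HDAC3, MBD2, RBBP7 and CDK2AP1 were named outside this where they complete a family. Alternatives were median-ratio scaling, FPKM with no scaling, pseudocounts of 1 and 0.01, no filter, at least 1 FPKM in every library, the block, limma-voom on the recovered reads, all 12 libraries in 1 fit and each library left out. Limma-voom with the block was added after seeing the data. Python 3.11.15, SciPy 1.17.1 and matplotlib 3.10.9 served for tables, exact tests and figures.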

Additional observations from a re-analysis of the deposited data

Results flagged for a closer look

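The response of CHD3 differed between the lines in a limma-voom fit on the recovered reads with the replicate block, an alternative chosen after seeing the data. The difference, ACHN minus 769-P, was -0.47 on the log2 scale, with a Benjamini-Hochberg adjusted p of 0.00359 over all genes. That setting called 1070 genes for the difference between lines. Limma on FPKM called 0 of 16564 genes without the block and 251 (1.52%) with it. Under the other settings, with a library left out included, the CHD3 difference was of the same sign, between -0.55 and -0.38. Its limma adjusted p was 0.0577 with the block on FPKM and 0.890 without it, and 0.999 in limma-voom without the block. CHD3 rose by 0.51 in 769-P cells, in 3 of 3 libraries, while its ACHN groups overlapped, with a fold change of 0.03. The response of the interferon-stimulated genes to siNUF2 also differed between the lines. The blocked limma fit called 11 of 15 for a lower response in ACHN than in 769-P cells, against 0.875% of all genes. The part of these genes in the difference of CHD3 was not tested.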

How the results depend on the processing

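Of 712 values of single genes under an alternative setting, 645 kept their direction and side of the threshold, 16 lost the call (15 of them in the comparison of the lines under siControl), 16 gained it and 35 changed sign. The count of genes called in 769-P cells was 1412, and it was 635 with no filter, 700 in 1 fit of all 12 libraries, 3898 with the replicate block, 5195 with limma-voom and the block, and 357 to 1144 with a library left out. Members called higher there numbered 2, 4 with the block, 5 with limma-voom and the block (GATAD2B added), and 1 to 2 with a library left out, the lower number without siNUF2 replicate 3. In ACHN cells 0 genes were called, 171 in 1 fit of all 12 libraries, 1843 with the block and 3529 with limma-voom and the block, of which 1, 3 and 3 were members. The difference between lines called 0 genes, 2 with a pseudocount of 0.01, 15 with no filter, 251 with the block, 1070 with limma-voom and the block (1 member, CHD3) and 0 to 1 with a library left out. The comparison of the lines called 9461 genes and 6278 with at least 1 FPKM in every library. Its 2 members called higher became 1 with a block on the number, which pairs nothing between lines, and 1 to 2 with a library left out, and its 7 called lower became 5 to 7. There MBD3 lost its call in 7 of 15 settings (adjusted p up to 0.130), MTA3 in 4 (up to 0.0907), CHD4 in 3 (up to 0.0740) and MTA1 in 1 (0.0553).

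HDAC1 in 769-P cells kept its call in all 16 alternatives (0.56 to 0.61, adjusted p at most 0.0278), and CHD3 in 15 of 16. GATAD2A kept its sign at 0.28 to 0.47 in 769-P and 0.41 to 0.47 for ACHN and was called in 2 of 16 alternatives in each, those with the block. MTA1 ran from 0.28 to 0.64 and from 0.37 to 0.55 and was likewise called only with the block, which took its limma adjusted p from 0.133 to 0.0396 in 769-P cells and, for ACHN, from 0.445 to 0.0169. HDAC1 in ACHN cells (0.41 to 0.57) went from 0.317 to 0.0166 with the block. The block in limma on FPKM changed no call of the other 7 members within a line. Signs changed with a library left out only for values near 0: in 769-P cells CHD4 (-0.00838 to 0.0421), MTA3 (-0.0869 to 0.0632) and MBD3 (-0.0909 to 0.0472), in ACHN cells GATAD2B (-0.0218 to 0.151), CHD3 (-0.0320 to 0.138), MTA2 (-0.0764 to 0.0316) and MBD3 (-0.194 to 0.0842), and for the difference between lines GATAD2A (-0.0174 to 0.168), CHD4 (-0.00818 to 0.151), MTA1 (-0.18 to 0.17), MTA3 (-0.131 to 0.0314) and MBD3 (-0.18 to 0.11). The last, 0.00063, was also -0.013 with median-ratio scaling, -0.012 with no scaling and -0.0022 with limma-voom and the block. The cause of these moves was not tested. The counting error of a member's value was 0.89% to 3.25%, and each group had 3 libraries.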
